A study of Homo sapiens with 18 samples.

Results

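The collagen genes are the 44 genes, of 60612 rows in the deposited table of gene counts, whose symbol is COL, a number, A and a number, each coding for 1 alpha chain. They were chosen by that symbol alone, a rule that uses no measured value, with earlier results of these data known. Their RNA is described here in HepG2 cells, a hepatocellular carcinoma line with many features of hepatocytes, and SH-SY5Y cells, a neuroblastoma line of sympathetic origin. Each line was transfected with a plasmid coding for mNeonGreen, a green fluorescent protein (control), or with a plasmid that also codes for the microRNA EXACT1 (EXACT1), with 3 libraries in each of the 4 groups. HepG2 cells were given 100 ng of plasmid per well with Lipofectamine 2000 on plates coated with poly-L-ornithine and fibronectin, and SH-SY5Y cells were nucleofected, so the line cannot be told apart from the way the plasmid was delivered. All groups were given mNeonGreen, and no untransfected cells were analysed here. The 6 HEK293A libraries of the series were not used, because the values in those columns could not be matched to the IDs beside them: of 6574 genes above 500 counts in every other library, 2555 (38.9%) were at 0 in every HEK293A library.

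Collagens are extracellular proteins built of 3 alpha chains wound into a triple helix, and which chains a cell makes sets which collagen it can build. Fibrillar collagens form the banded fibres of skin, bone and cartilage, type IV collagen forms the sheet of basement membranes, and type VI collagen forms beaded filaments around cells. FACIT collagens, such as type IX, sit on the surface of fibrils, and multiplexins, such as type XVIII, lie in basement membranes. In liver the fibrillar collagens are known mainly from stellate cells and fibroblasts rather than hepatocytes, and in the nervous system from sheath cells and fibroblasts rather than neurons.

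The 6 type IV genes lie as 3 pairs of neighbours that point away from each other, and the pairs are shown first because the 2 lines carried RNA of different pairs. In RefSeq on GRCh38.p14 the starts of COL4A1 and COL4A2 lie 127 bases apart, those of COL4A3 and COL4A4 419 bases apart, and those of COL4A5 and COL4A6 380 bases apart, with a further COL4A6 start at 1416 bases. The 250 bases before the start of the forward-strand gene of each pair are printed 5′ to 3′, at chr13:110307034-110307283, chr2:227164374-227164623 and chrX:108439588-108439837, all on the plus strand. Capitals mark 2 short motifs on either strand. The GC box was searched as GGGCGG. The other, the CCAAT box, was searched by the letters of its name.
COL4A2: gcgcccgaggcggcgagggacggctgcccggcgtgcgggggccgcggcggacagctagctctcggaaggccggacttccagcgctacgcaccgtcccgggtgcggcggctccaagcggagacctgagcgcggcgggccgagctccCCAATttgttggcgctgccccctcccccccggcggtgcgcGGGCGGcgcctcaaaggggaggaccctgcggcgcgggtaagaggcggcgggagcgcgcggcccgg
COL4A3: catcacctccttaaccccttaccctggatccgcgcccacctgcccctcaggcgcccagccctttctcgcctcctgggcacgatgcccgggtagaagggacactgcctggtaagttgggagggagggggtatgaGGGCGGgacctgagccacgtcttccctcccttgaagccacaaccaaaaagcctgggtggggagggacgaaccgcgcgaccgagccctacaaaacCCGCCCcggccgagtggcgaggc
COL4A5: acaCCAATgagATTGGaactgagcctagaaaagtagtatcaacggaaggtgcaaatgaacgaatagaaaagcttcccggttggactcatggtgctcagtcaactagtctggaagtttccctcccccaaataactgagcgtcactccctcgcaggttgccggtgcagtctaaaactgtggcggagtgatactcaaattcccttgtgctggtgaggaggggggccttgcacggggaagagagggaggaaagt
The COL4A2 stretch holds 1 GC box and 1 CCAAT box, the COL4A3 stretch 2 GC boxes and no CCAAT box, and the COL4A5 stretch 2 CCAAT boxes and no GC box. The TATA box, searched as TATAAA, is in none of the 3. No 2 of these matches overlap. Over the 35116 RefSeq stretches of the same length, 42.6% hold the GC box, 32% the CCAAT box and 10.7% the TATA box on either strand. The GC content was 78.8%, 66.4% and 51.2% in that order. These letters describe the windows and were not tested as sites.

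Total counts lay between 66056962 and 77100150 per library. Of the 12 libraries, 2 stood apart from the others of their group. Ribosomal protein genes took 9.83% of the counts in HepG2 EXACT1 replicate 1, against 4.62% to 4.77% in the other HepG2 libraries, and 12.9% in SH-SY5Y control replicate 2, against 5.44% to 5.89%. Levels are CPM, counts relative to the size of each library after scaling by TMM (a trimmed mean of log ratios between libraries). In the HepG2 library 8 of the 13 collagen genes at 1 CPM or more lay above and 3 below all other HepG2 libraries: COL18A1 had 1559 CPM against 509 to 623, COL9A2 161 CPM against 40.8 to 46.5, and COL4A5 27.2 CPM against 94.2 to 103. In the SH-SY5Y library 6 of 21 lay above and 7 below: COL6A2 had 151 CPM against 36.8 to 58.9, and COL11A1 3.17 CPM against 10.4 to 13.3. The share of all genes that lay outside in the same way was not computed, so these counts are not read as particular to collagen genes. COL9A2, COL9A3, COL18A1 and COL6A1 were high in both outlying libraries, although these carry different plasmids and come from different lines. Results that rest on these libraries are given with and without them. In SH-SY5Y both libraries numbered 1 also differed from the other 4 in some collagen genes, as described further on.

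The 2 lines carried different sets of collagen RNA. In HepG2, 13 of the 44 genes had a mean of at least 1 CPM, and in SH-SY5Y 21 did. Of these, 9 reached that level in both lines, 4 in HepG2 alone and 12 in SH-SY5Y alone, and 19 reached it in neither. COL20A1 had no count in any of the 12 libraries. There were 12 collagen genes without a count in every HepG2 library (COL6A5, COL6A6, COL8A1, COL9A1, COL11A1, COL13A1, COL14A1, COL15A1, COL17A1, COL19A1, COL20A1 and COL22A1) and 3 in SH-SY5Y (COL10A1, COL20A1 and COL25A1). The most frequent nonzero count was 4 in each library. The floor below which a level cannot be told from 0 was therefore taken as 12 counts per library, 3 times that value. Reads passed from one library to another would not be covered by this floor and were not tested for.

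**Figure D1:**
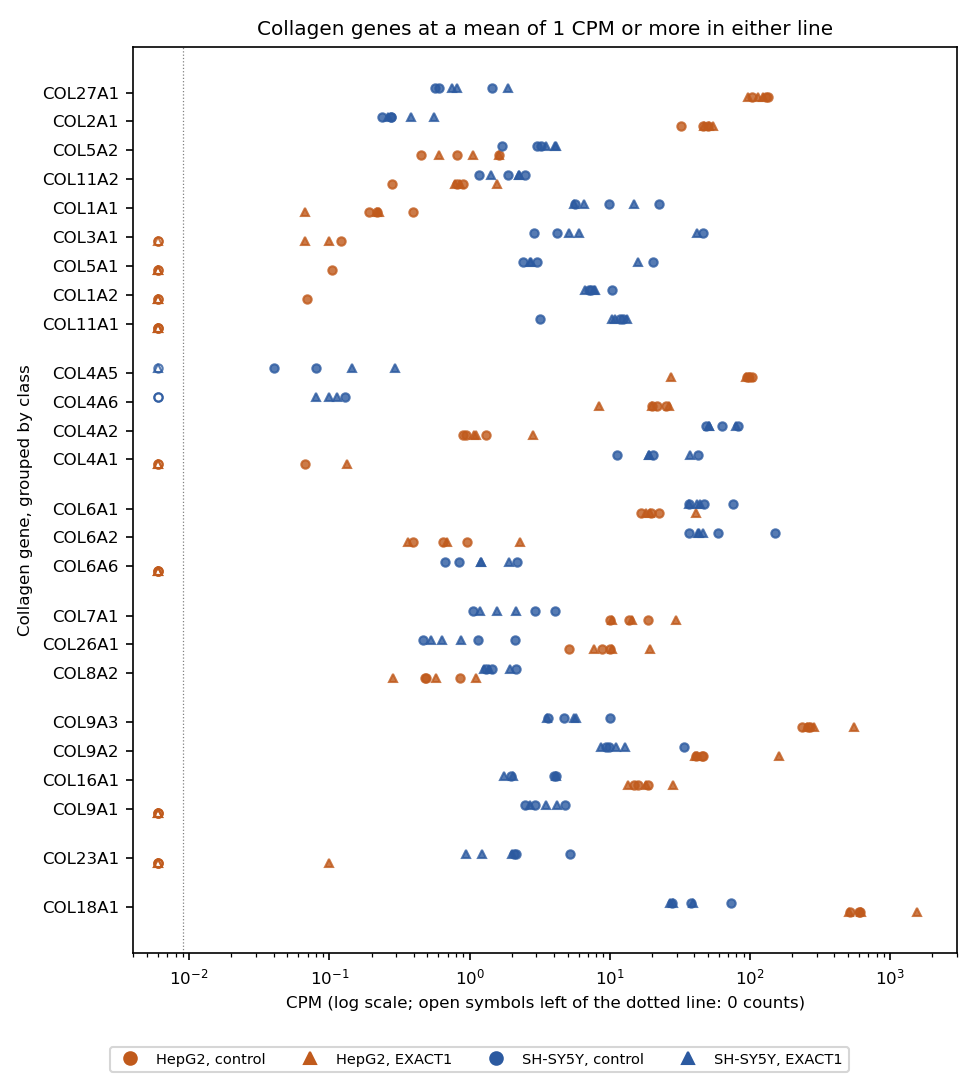
CPM (log axis) of the 25 collagen genes with a mean of at least 1 CPM in HepG2 or SH-SY5Y, grouped by class, with 1 symbol per library (circles control, triangles EXACT1) and open symbols at the left for 0 counts. HepG2 lies to the right for COL27A1, COL2A1, COL4A5, COL4A6, COL9A3 and COL18A1, and SH-SY5Y for COL4A1, COL4A2, COL6A2 and most fibrillar genes.

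With the control plasmid, 32 collagen genes were expressed enough to be tested between the lines, and 10 were higher and 17 lower in HepG2 by edgeR's quasi-likelihood test at a Benjamini-Hochberg adjusted p under 0.05. The lines differ in most genes: over the 22009 genes tested, 22.9% were higher and 30.6% lower in HepG2, 53.5% in all. With the EXACT1 plasmid, 11 collagen genes were higher and 12 lower, beside 25.4% and 28.4% of all genes (53.9% in either direction). The same direction was called with both plasmids for 22 of the 32 collagen genes. The share of all genes called alike with both plasmids was not computed. The median log2 difference (HepG2 over SH-SY5Y) of the tested collagen genes was -1.47 with control and -1.81 with EXACT1, beside -0.34 and -0.17 for all genes. In the control libraries, the 3 values of one line lay wholly above or below those of the other for 28 of the 32 tested collagen genes, beside 65.1% of all genes. When libraries were scaled by their totals alone the median of all genes moved to -0.99 and -1.11 and the split of all calls to 3537 higher and 9499 lower with control and 3553 and 9939 with EXACT1, against 5049 and 6729, and 5598 and 6255, after TMM scaling. The collagen calls were then 9 higher and 17 lower, and 11 and 18. Without the 2 libraries that stood apart they were 11 and 17 with control and 12 and 14 with EXACT1. Of all 22857 genes tested in that setting, 6995 were higher and 8562 lower with control, and 7168 and 8410 with EXACT1. In bulk RNA, fewer cells that express a gene and less of its RNA per cell cannot be told apart.

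Type IV collagen split by gene pair. COL4A1 and COL4A2, which code for the chains of the common basement membrane trimer, were high in SH-SY5Y. COL4A1 had 42.5, 11.2 and 20.3 CPM in the SH-SY5Y control libraries and 37.4, 19.2 and 19.1 CPM with EXACT1, and 0, 0.067 and 0 CPM in the HepG2 control libraries and 0, 0.134 and 0 CPM with EXACT1. The groups of the 2 lines did not overlap, and HepG2 lay at or near 0. COL4A2 had 81.6, 63.1 and 48.6 CPM in SH-SY5Y with control and 79.5, 50.8 and 51.2 CPM with EXACT1, against 1.31, 0.905 and 0.94 CPM in HepG2 with control and 2.83, 1.07 and 1.12 CPM with EXACT1. The log2 difference of COL4A2 was -5.94 (SE 0.48, edgeR adjusted p = 3.51e-06) with control and -5.19 (SE 0.46, edgeR adjusted p = 6.53e-06) with EXACT1. COL4A1 was called lower in HepG2 with edgeR adjusted p = 6.89e-05 and 9.07e-05, and no fold is given because its HepG2 counts lie at or under the floor.

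COL4A5 and COL4A6, whose chains are known from kidney, skin and smooth muscle basement membranes, showed the reverse. COL4A5 had 98.4, 95.4 and 103 CPM in HepG2 with control and 27.2, 99.7 and 94.2 CPM with EXACT1, and 0.0797, 0 and 0.0405 CPM in SH-SY5Y with control and 0, 0.292 and 0.145 CPM with EXACT1. COL4A6 had 21.6, 25.4 and 19.9 CPM in HepG2 with control and 8.44, 26.3 and 19.9 CPM with EXACT1, and no SH-SY5Y library exceeded 0.13 CPM. Both were called higher in HepG2 with either plasmid, with edgeR adjusted p = 2.96e-05 and 6.17e-05 for COL4A5 and 4.25e-05 and 7.76e-05 for COL4A6. The lowest HepG2 value of both genes came from EXACT1 replicate 1. The third pair was at or near 0 in both lines: COL4A3 did not exceed 0.063 CPM and was not tested, and COL4A4 did not exceed 0.355 CPM and was not called (edgeR adjusted p = 0.541 with control and 0.0533 with EXACT1). Each line had RNA of both members of 1 pair at 20 CPM or more on average, and of the other pairs at most 1.36 CPM on average.

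Within each pair the members differed in level per transcript length. CPM per kb of the principal transcript was 13.4 for COL4A5 and 3.08 for COL4A6 in HepG2, and their ratio lay between 3.29 and 5.29 in the 6 libraries, with a median of 4.27. In SH-SY5Y COL4A2 was at 9.62 CPM per kb and COL4A1 at 3.77, and the ratio COL4A2 over COL4A1 lay between 1.96 and 5.74 with a median of 2.56. The COL4A1 and COL4A2 gene models overlap on opposite strands in GENCODE 29, as do COL18A1 and SLC19A1, COL9A3 and TCFL5, and COL10A1 and NT5DC1. The strand setting of the counting is not given in the sources used here, so the split of reads within the overlaps is uncertain.

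The fibrillar genes divided in the same manner between lines. Of the 11, 10 were tested with control, and 3 were higher and 7 lower in HepG2. The 3 higher genes were COL2A1, the main collagen of cartilage, COL27A1, a cartilage-associated fibrillar chain, and COL24A1, a minor fibrillar chain. COL2A1 had 32.1, 46.5 and 50.4 CPM in HepG2 with control and 46.7, 50.7 and 54.7 CPM with EXACT1, and between 0.239 and 0.559 CPM over the SH-SY5Y libraries, a log2 difference of 7.35 (SE 0.37, edgeR adjusted p = 1.09e-07) with control. COL27A1 had 134, 131 and 104 CPM with control and 96.5, 115 and 123 CPM with EXACT1 in HepG2, against 0.568 to 1.87 CPM in SH-SY5Y, a log2 difference of 7.13 (SE 0.54, edgeR adjusted p = 2.09e-06). COL24A1 stayed under 1 CPM in every library, with at most 0.819 CPM in HepG2 and at most 0.0399 CPM in SH-SY5Y, and its call with control was lost in 7 of 22 alternative settings, among them without any 1 of the 3 HepG2 control libraries. The sets of the 2 lines did not overlap for COL2A1 and COL27A1.

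The fibrillar genes lower in HepG2 were those of types I, III, V and XI. COL1A1 and COL1A2 code for the chains of type I collagen, the main fibre of bone and skin. COL1A1 had 22.6, 9.87 and 5.65 CPM in SH-SY5Y with control and 15, 5.56 and 6.52 CPM with EXACT1, and at most 0.396 CPM in HepG2, a log2 difference of -5.56 (SE 0.73, edgeR adjusted p = 9.26e-05). COL1A2 had 6.64 to 10.4 CPM in SH-SY5Y and a count in only 1 HepG2 library (0.0697 CPM). COL3A1, which co-assembles with type I in elastic tissues, had 2.88 to 46.1 CPM in SH-SY5Y and at most 0.122 CPM in HepG2 (edgeR adjusted p = 0.00195). COL5A1, whose type V product sets fibril diameter, had 2.4 to 20.3 CPM in SH-SY5Y and a count in 1 HepG2 library. COL11A1 had 12.4, 3.17 and 11.9 CPM in SH-SY5Y with control and 13.3, 10.4 and 10.9 CPM with EXACT1, and no count in HepG2, which is at least 45.2-fold higher in SH-SY5Y with control.

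Differences were smaller for COL5A2 and COL11A2. COL5A2 had a mean of 1.02 ± 0.5 CPM (SD, n = 6) in HepG2 and 3.28 ± 0.885 CPM (SD, n = 6) in SH-SY5Y, and COL11A2 0.87 ± 0.415 and 1.91 ± 0.523 CPM (SD, n = 6). Their log2 differences with control were -1.48 (SE 0.51, edgeR adjusted p = 0.0314) and -1.46 (SE 0.52, edgeR adjusted p = 0.034). These calls were lost in 7 and 9 of 23 alternative settings, among them the fit of the 6 control libraries alone. COL5A3 was at most 0.279 CPM and was not tested. Type XI collagen also uses a chain made from COL2A1: SH-SY5Y had COL11A1 RNA with little COL2A1 RNA, and HepG2 had COL2A1 RNA with no count of COL11A1.

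Type VI genes were lower in HepG2, and the members differed in how far. All 4 tested genes were called lower with control, and 2 (COL6A2 and COL6A6) with EXACT1. COL6A1 had 16.6, 22.6 and 19.7 CPM in HepG2 with control and 41.4, 19.5 and 18.2 CPM with EXACT1, and 46.8, 76.3 and 36.9 CPM in SH-SY5Y with control and 44, 41.6 and 36.7 CPM with EXACT1. Its log2 difference was -1.44 (SE 0.37, edgeR adjusted p = 0.00655) with control and -0.63 (SE 0.36, edgeR adjusted p = 0.161) with EXACT1, where the 2 lines overlap through HepG2 replicate 1. Without HepG2 EXACT1 replicate 1, COL6A1 was called lower in HepG2 with EXACT1 as well, and also without both libraries that stood apart. COL6A2 had 0.644, 0.955 and 0.396 CPM in HepG2 with control and 2.3, 0.686 and 0.362 CPM with EXACT1, and 58.9, 151 and 36.8 CPM in SH-SY5Y with control and 46.1, 43 and 42.6 CPM with EXACT1, a log2 difference of -6.95 (SE 0.84, edgeR adjusted p = 5.14e-05) with control. The genes are neighbours on chromosome 21 and their products share 1 trimer. Per kb, COL6A1 over COL6A2 was 14.7 to 41 in HepG2 (median 22.1) and 0.412 to 0.818 in SH-SY5Y (median 0.742), so the order of the 2 genes differed between the lines in every library.

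The third chain of the usual type VI trimer, COL6A3, was low in both lines, with at most 0.268 CPM in HepG2 against 0.232 to 1.79 CPM in SH-SY5Y, and its call with control was lost in 6 of 22 alternative settings. COL6A1 stood 66.1 to 700 times above it per kb in SH-SY5Y (median 155). COL6A6 had 0.669 to 2.17 CPM in SH-SY5Y and no count in HepG2, at least 6.05-fold higher in SH-SY5Y with control. COL6A5 had a count in 2 SH-SY5Y libraries and in no HepG2 library.

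Among the 10 FACIT genes, type IX chains were the most abundant, and HepG2 had RNA for 2 of the 3. COL9A3 had 269, 260 and 237 CPM in HepG2 with control and 556, 285 and 257 CPM with EXACT1, against 3.57 to 10.1 CPM in SH-SY5Y, a log2 difference of 5.38 (SE 0.49, edgeR adjusted p = 7.25e-06) with control. COL9A2 had 46.5, 45.4 and 41.1 CPM in HepG2 with control and 161, 40.8 and 41.7 CPM with EXACT1, and 9.81, 33.9 and 9.48 CPM in SH-SY5Y with control and 8.7, 11.1 and 12.9 CPM with EXACT1. Its log2 difference was 1.32 (SE 0.61, edgeR adjusted p = 0.0876) with control, 2.21 (edgeR adjusted p = 0.00604) without SH-SY5Y control replicate 2, and 2.89 (SE 0.64, edgeR adjusted p = 0.00298) with EXACT1. COL9A1, the remaining chain of type IX, had no count in HepG2 and 2.5 to 4.82 CPM in SH-SY5Y, at least 16.9-fold higher there with control. Per kb COL9A3 over COL9A2 was 3.96 to 8 in HepG2 (median 6.62) and 0.341 to 0.591 in SH-SY5Y (median 0.483).

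COL16A1, a FACIT found in fibrils and microfibrils, had 13.4 to 28.2 CPM in HepG2 against 1.75 to 4.13 CPM in SH-SY5Y, a log2 difference of 2.29 (SE 0.43, edgeR adjusted p = 0.00114) with control. COL19A1 had no count in HepG2 and 0 to 0.379 CPM in SH-SY5Y, and its call with control, which rests on these few counts, was lost in 10 of 20 alternative settings, among them without any 1 of the 6 control libraries. COL22A1 was not called (edgeR adjusted p = 0.137), and COL12A1, COL14A1, COL20A1 and COL21A1 were not tested, with at most 0.409 CPM in any library.

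The multiplexin COL18A1 had the highest CPM of the collagen genes in HepG2, and per transcript length it was level with COL9A3, as described further on. Type XVIII collagen is a basement membrane proteoglycan whose C-terminal fragment is known as endostatin, and hepatocytes are a known source of it. COL18A1 had 603, 613 and 519 CPM in HepG2 with control and 1559, 623 and 509 CPM with EXACT1, and 37.8, 73.7 and 27.6 CPM in SH-SY5Y with control and 39.1, 28.2 and 27.1 CPM with EXACT1. The log2 difference was 3.64 (SE 0.49, edgeR adjusted p = 0.000119) with control and 4.83 (SE 0.52, edgeR adjusted p = 2.43e-05) with EXACT1. COL15A1, the other multiplexin, had a count in 1 SH-SY5Y library.

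Other classes held smaller levels. COL7A1, which codes for the anchoring fibrils under the epidermis, had 10 to 29.8 CPM in HepG2 against 1.06 to 4.09 CPM in SH-SY5Y (log2 difference 2.40, SE 0.55, edgeR adjusted p = 0.00353 with control). COL26A1 had 5.12 to 19.3 CPM in HepG2 against 0.466 to 2.1 CPM in SH-SY5Y (log2 difference 2.69, SE 0.56, edgeR adjusted p = 0.00212). COL8A2, a short chain known from corneal endothelium, had 0.283 to 1.12 CPM in HepG2 against 1.26 to 2.13 CPM in SH-SY5Y (log2 difference -1.43, SE 0.52, edgeR adjusted p = 0.0369), and its call was lost in 10 of 23 alternative settings. COL10A1 (edgeR adjusted p = 0.131) and COL28A1 (edgeR adjusted p = 0.416) were not called and COL8A1 was not tested. Of the 4 transmembrane collagens only COL23A1 reached 1 CPM, with 2.08, 5.25 and 2.14 CPM in SH-SY5Y with control, 2, 1.23 and 0.942 CPM with EXACT1 and a count in 1 HepG2 library, and in the control libraries it was at least 15.6-fold higher in SH-SY5Y. COL13A1, COL17A1 and COL25A1 did not exceed 0.118 CPM and were not tested.

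Ranked per transcript length, HepG2 held 2 collagen RNAs far above the rest. COL18A1 (125 ± 68.5 CPM per kb, SD, n = 6) and COL9A3 (124 ± 48.5) did not differ beyond their spread, and COL18A1 was the higher only in EXACT1 replicate 1. They were followed by COL9A2 (21.9 ± 16.8), COL27A1 (15), COL4A5 (13.4) and COL2A1 (9.24), whose spreads overlap their neighbours'. COL18A1 and COL9A3 made up 33.1% to 44.2% and 36.9% to 39.6% of the summed collagen CPM per kb of a HepG2 library. In SH-SY5Y the order was COL6A2 (18.2 ± 12.7 CPM per kb, SD, n = 6), COL6A1 (11.1), COL4A2 (9.62), COL18A1 (6.57), COL9A2 (5), COL4A1 (3.77) and COL3A1 (3.19), and neighbours in that order did not differ beyond their spread. The summed CPM of all collagen genes was 1132 to 2582 in HepG2 and 237 to 470 in SH-SY5Y, so HepG2 was above SH-SY5Y in every library. The fibrillar genes made up 3.69% to 10.4% of the sum per kb in HepG2 and 4.32% to 23.3% in SH-SY5Y. After TMM scaling their own summed CPM was higher in HepG2 in every library, at 146 to 181 CPM against 30.6 to 119 CPM in SH-SY5Y. That order depends on the scaling, and by library totals alone the lines overlap. TMM set the size of SH-SY5Y control replicate 1 at 100324333 for 70766030 counts. For HepG2 EXACT1 replicate 1 it was 39915180 for 70897097 counts.

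Markers of the labelled lines and of other cells were read beside these levels. All 14 hepatocyte markers were higher in HepG2 with either plasmid, led in level by ALB (47710 CPM in HepG2 against 82.5 CPM in SH-SY5Y with control), and 13 of 14 sympathetic neuroblast markers were lower, among them DBH and STMN2. The median log2 difference of the hepatocyte markers was 9.28 with control, and ALB, APOB, AFP, TF, FGA and APOH lay between 9.15 and 9.36. Whether reads passed between libraries was not tested. Low SH-SY5Y values of genes abundant in HepG2, such as COL4A5 or PLOD2, cannot be told from such reads. SOX9, a transcription factor of cartilage that acts on COL2A1 in chondrocytes, had a mean of 352 CPM in HepG2 against 4.72 CPM in SH-SY5Y with control. Of 6 chondrocyte markers, SOX9 among them, 2 were tested, and 1 was higher and 1 lower in HepG2. The cartilage genes ACAN, HAPLN1 and MIA had no count in HepG2, and ACAN and CNMD had none in SH-SY5Y. The matrilin gene MATN3, which is not in that list, had 488 CPM in HepG2 against 4.92 CPM in SH-SY5Y with control. Of 12 fibroblast markers 10 were tested, and 6 were lower in HepG2, among them PDGFRA (0.0904 and 110 CPM), THY1 (0.0387 and 103 CPM) and TWIST1 (0.122 and 218 CPM), while the smooth muscle actin gene ACTA2 was higher (44.7 and 9.43 CPM). Of 10 markers of mesenchymal neuroblastoma cells 9 were tested, and 3 were lower in HepG2, led by VIM (0.947 and 395 CPM), and 4 higher: YAP1 (265 and 1.35 CPM), WWTR1, FOSL2 and AXL. Of 8 Schwann cell markers 5 were tested, and 2 were higher and 2 lower, and of 6 endothelial markers 5 were tested, and 3 were higher and 1 lower. These marker counts are for control by edgeR, where 22.9% of all genes were higher and 30.6% lower. The part of these cell features in the collagen levels was not tested.

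Genes that build, release and break down collagen are given by step, with counts for control by edgeR's call at an adjusted p under 0.05, to be read beside the 22.9% of all genes higher and 30.6% lower in HepG2 and their median log2 difference of -0.34. A difference between steps was not tested. Of 19 genes for hydroxylation and folding of the chains, 11 were higher and 1 lower in HepG2 (median log2 difference 1.43). Without the 2 libraries that stood apart these were 17 and 0, beside 6995 higher and 8562 lower of all 22857 genes tested in that setting. PLOD2, a lysyl hydroxylase, had 1551 ± 138 CPM in HepG2 against 2.19 ± 0.0894 CPM in SH-SY5Y (SD, n = 3), P4HA1, a prolyl hydroxylase subunit, 772 ± 15.3 and 18.7 ± 7.1 CPM, and P4HB, its partner, 2687 ± 109 and 382 ± 157 CPM. Of 11 genes for export from the endoplasmic reticulum 10 were tested, and 7 were higher and 0 lower (median log2 difference 1.85), among them MIA2 (312 ± 18.7 and 5.31 ± 1.45 CPM), which loads large cargo, and the coat gene SEC23A (1344 ± 24.9 and 31 ± 15.4 CPM). Of 10 propeptide cleavage genes 8 were tested, and 2 were higher and 3 lower (median log2 difference -1), shares near those of all genes. ADAMTS3 and ADAMTS14, which trim the amino end of fibrillar chains, had no count in HepG2 and means of 5.03 and 10.8 CPM in SH-SY5Y. ADAMTS2, which trims the same end, had 2.45 ± 0.256 and 3.33 ± 1.08 CPM and was not called (edgeR adjusted p = 0.486). PCOLCE, which aids trimming of the other end, had 50.7 ± 3.82 and 509 ± 430 CPM.

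All 7 crosslinking genes were called, 5 higher and 2 lower in HepG2 (median log2 difference 5.67). LOX, the lysyl oxidase that links fibrillar collagens, had 874 ± 36.8 CPM in HepG2 against 8.87 ± 2.51 CPM in SH-SY5Y (SD, n = 3), while PXDN, the peroxidase that links the type IV network, had 0.25 ± 0.153 and 208 ± 82.6 CPM. LOX was high in the line with little type I and III RNA, and PXDN in the line with COL4A1 and COL4A2 RNA. After TMM scaling HepG2 also had the higher summed CPM of fibrillar genes (146 to 181 against 30.6 to 119), but by library totals alone the lines overlap. With little PXDN RNA it had COL4A5 at 13.4 CPM per kb, beside 9.62 for COL4A2 in SH-SY5Y. A link between these enzymes and the collagen levels was not tested. Of 12 collagen receptor genes 11 were tested, and 7 were higher and 3 lower (median log2 difference 2.20): the receptor tyrosine kinase DDR2 (1.25 ± 0.342 and 77 ± 37.7 CPM) and MRC2, which takes up collagen for breakdown (0.0607 ± 0.0666 and 101 ± 35.7 CPM), were lower, ADGRG6 (611 ± 21.4 and 0.892 ± 0.161 CPM), which binds type IV collagen, was higher, and the integrin ITGB1, the most abundant, was not called (749 ± 25.2 and 296 ± 159 CPM, edgeR adjusted p = 0.0585). Of 17 genes for collagen breakdown and its inhibitors 13 were tested, and 2 were higher and 8 lower (median log2 difference -1.71), with the gelatinase MMP2 at 0.729 ± 0.134 and 339 ± 43.8 CPM, the inhibitor TIMP2 at 57.4 ± 3.64 and 450 ± 84.1 CPM and TIMP3 at 518 ± 59.4 and 31.7 ± 11.5 CPM.

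Matrix partners were split. Of 20 basement membrane genes 18 were tested, and 8 were higher and 5 lower in HepG2 (median log2 difference 1.48): LAMB1, a laminin chain, had 452 ± 15.3 CPM in HepG2 against 208 ± 94.8 CPM in SH-SY5Y (SD, n = 3), NID1, which bridges laminin and type IV collagen, 573 ± 20.9 and 42.9 ± 19.7 CPM, and the laminin chain LAMA4 no count and 5.6 ± 1.89 CPM. Of 20 genes for proteins on or around fibrils 13 were tested, and 5 were higher and 5 lower (median log2 difference 0.35): FN1, fibronectin, had 19727 ± 805 and 95.4 ± 27.3 CPM and TNC 0.108 ± 0.098 and 78.2 ± 39.4 CPM. Of 30 other genes for proteins with a collagen domain or kinship 18 were tested, and 4 were higher, among them the lectin MBL2 (79.8 ± 3.37 and 0.256 ± 0.0738 CPM), and 10 lower, among them COLEC11 (0.941 ± 0.385 and 64.7 ± 26.8 CPM), with a median log2 difference of -1.99. With EXACT1 in place of control, 4 of these 30 were lower, beside 28.4% of all genes. Without the 2 libraries that stood apart 10 were lower, beside 8410 of all 22857 genes tested in that setting. EXACT1 against control called no gene of any of these lists in either line by edgeR, beside 0% of 17139 genes in HepG2 and 0% of 19853 in SH-SY5Y.

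In SH-SY5Y the libraries numbered 1 of both plasmids stood apart for some fibrillar and type IV genes. COL3A1 had 46.1 and 41.7 CPM in control and EXACT1 replicate 1 and 2.88 to 6.06 CPM in the other 4 libraries. COL5A1 had 20.3 and 15.9 CPM against 2.4 to 3.04, COL1A1 22.6 and 15 CPM against 5.56 to 9.87, COL4A1 42.5 and 37.4 CPM against 11.2 to 20.3, and COL4A2 81.6 and 79.5 CPM against 48.6 to 63.1. COL27A1 had 1.45 and 1.87 CPM against 0.568 to 0.818. The margin was narrow for COL11A1 (12.4 and 13.3 CPM against 3.17 to 11.9), COL11A2 (2.48 and 2.27 against 1.16 to 2.25) and COL16A1 (4.13 and 4.12 against 1.75 to 4.02). Both libraries thus lay above the other 4 for 9 of the 21 collagen genes at 1 CPM or more (42.9%), beside 6.42% of the 14234 genes at that level. With a ratio to the other 4 above 2, the count was 5 of 21 (23.8%), beside 1.31% of all genes. They lay below the other 4 for 1 collagen gene, COL9A3, beside 10.1% of all genes. COL1A2, whose product joins that of COL1A1 in 1 trimer, had 10.4 and 7.69 CPM against 6.64 to 7.81 and did not separate them. Nor did the fibrillar gene COL5A2, with 3.04 and 3.5 CPM against 1.7 to 4.14.

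**Figure D2:**
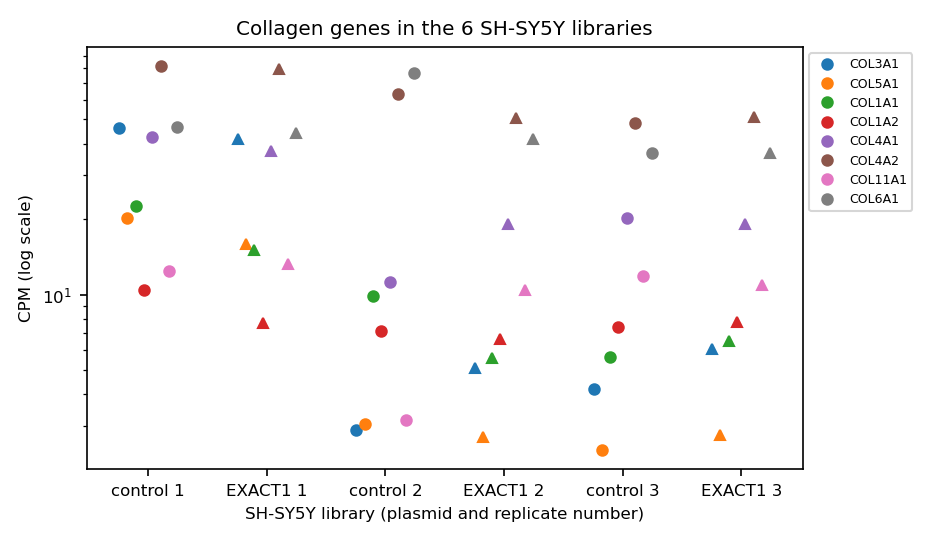
CPM (log axis) of 8 collagen genes in the 6 SH-SY5Y libraries, named on the x axis by plasmid and replicate number (circles control, triangles EXACT1). COL3A1, COL5A1, COL1A1 and COL4A1 are highest in both libraries numbered 1, and COL11A1 is lowest in control replicate 2.

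Other matrix genes separated the same 2 libraries. The proteoglycan gene DCN had 31 and 21.1 CPM against 3.08 to 4.37 in the other 4, LUM 52.2 and 33.5 CPM against 11.3 to 17.9, and SPARC, a collagen-binding matrix protein, 90.5 and 80.1 CPM against 36.8 to 41.6. The sum over 10 markers of mesenchymal neuroblastoma cells was 667 and 513 CPM against 347 to 409, and most of it was VIM, at 564 and 404 CPM against 250 to 370. Without VIM the sum was 102 and 109 CPM against 39.2 to 103. Of the 10, 5 lay above the other 4 libraries in both (YAP1, WWTR1, SNAI2, FOSL2 and VIM) and 5 did not separate them, among them CD44 (9.58 and 6.84 CPM against 6.46 to 10.4) and PRRX1, which had no count. The sum over 12 fibroblast markers, DCN and LUM among them, was 535 and 525 CPM against 529 to 637. Of these, 3 lay above (FAP, DCN and LUM), 1 below (TWIST1) and 8 did not separate them, and TCF21 had no count. The labels do not say what a replicate number stands for, and the part of other cells in these values was not tested. Without both libraries the line calls among 31 tested collagen genes were 10 higher and 12 lower with control and 11 and 12 with EXACT1. Of all 22555 genes tested in that setting, 4335 were higher and 5670 lower with control, and 4652 and 5005 with EXACT1. These 2 libraries carry different plasmids, so the feature is present on both sides of the comparison of EXACT1 with control.

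The comparison of the plasmids asks which collagen genes differed when EXACT1 was expressed beside mNeonGreen. No collagen gene passed in either line by edgeR's quasi-likelihood test: 0 of 19 tested in HepG2 and 0 of 28 in SH-SY5Y, beside 0% of 17139 and 0% of 19853 genes in all. At an unadjusted p under 0.05 there were 0 and 0 collagen genes, beside 0.957% and 1.01% of all genes, all by edgeR. DESeq2 and limma voom also called no collagen gene, beside 0.0583% and 0.0453% of all genes by DESeq2 and 0.00583% and 0.00504% by limma voom. At an unadjusted p under 0.05 DESeq2 had 0 and 1 collagen genes, beside 2.39% and 3.11% of all genes, and limma voom 1 and 3, beside 4.15% and 4.92%. The median log2 change (EXACT1 over control) was 0.25 in HepG2, where 14 of 19 lay above 0, and -0.24 in SH-SY5Y, where 18 of 28 lay below 0, beside 0.003 and -0.01 for all genes. Without HepG2 EXACT1 replicate 1 the HepG2 median was 0.04, and without SH-SY5Y control replicate 2 the SH-SY5Y median was -0.10.

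The 5 HepG2 genes with the smallest p were COL9A2, COL9A3, COL26A1, COL18A1 and COL4A2, with log2 changes of 0.75 (SE 0.53), 0.42 (SE 0.30), 0.55 (SE 0.40), 0.53 (SE 0.40) and 0.56 (SE 0.45), all at edgeR adjusted p = 0.792. In each of the 5 the highest library was EXACT1 replicate 1, and no collagen gene tested in HepG2 had groups that did not overlap, beside 10.3% of all genes. Without that library the values were -0.12 (SE 0.08) for COL9A2 and -0.04 (SE 0.09) for COL18A1. In SH-SY5Y the 5 were COL23A1 at -1.20 (SE 0.51), COL6A2 at -0.94 (SE 0.52), COL5A2 at 0.52 (SE 0.32), COL26A1 at -0.89 (SE 0.59) and COL18A1 at -0.59 (SE 0.41), all at edgeR adjusted p = 0.796. The groups did not overlap for 2 of 28 collagen genes, COL5A2 and COL23A1, beside 7.67% of all genes. Control replicate 2 was the highest library for COL23A1, COL6A2, COL26A1 and COL18A1 and the lowest for COL5A2.

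**Figure D3:**
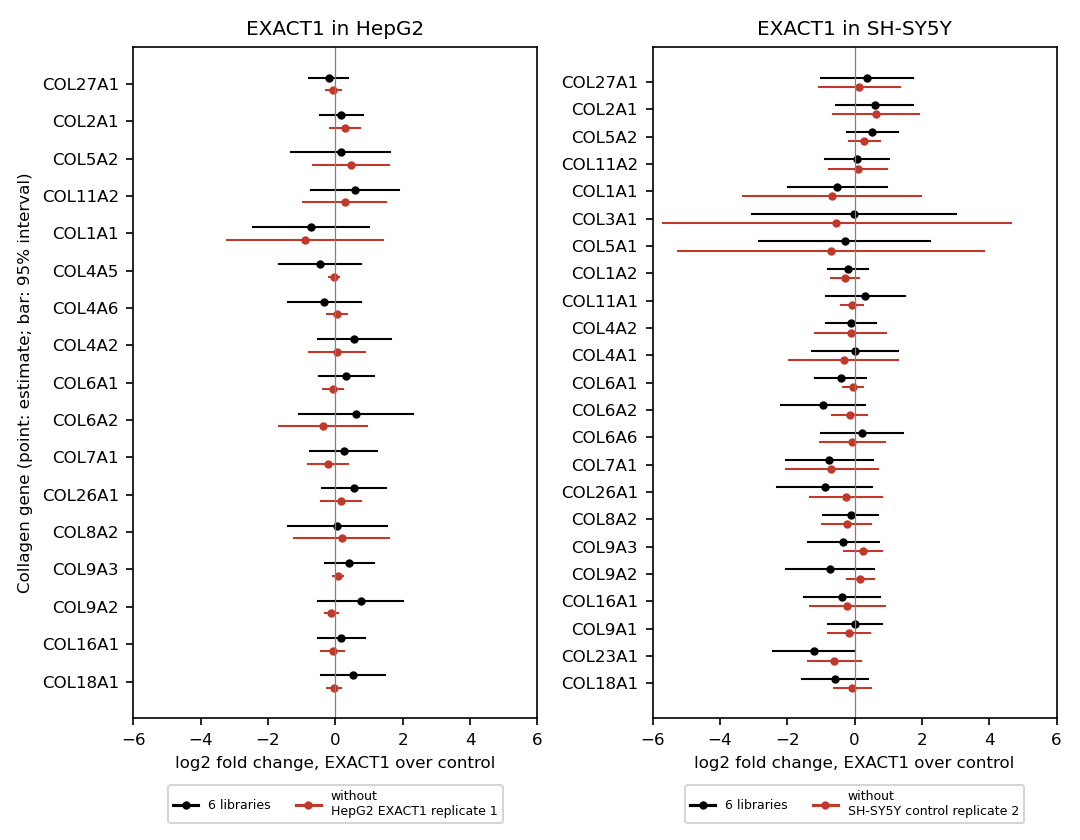
Log2 fold change of EXACT1 over control in HepG2 (left) and SH-SY5Y (right) for the tested collagen genes with a mean of at least 1 CPM in either line, as edgeR estimates (points) with 95% intervals (bars), from 6 libraries (black) and without the 1 library that stood apart (red). No gene passed the test, and the intervals of COL9A2 and COL18A1 in HepG2 shrink towards 0 without EXACT1 replicate 1.

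The width of the intervals limits what these comparisons can show. The 95% interval of the log2 change lay within 1 in either direction for 3 of 19 collagen genes in HepG2 and 4 of 28 in SH-SY5Y, beside 26% and 29.4% of all genes. Without the library that stood apart it did so for 12 of 19 and 11 of 30. In HepG2 COL18A1 had an interval of -0.44 to 1.49 with all libraries and -0.25 to 0.16 without EXACT1 replicate 1, and COL4A5 -1.67 to 0.76 and -0.18 to 0.10. In SH-SY5Y COL3A1 had an interval of -3.06 to 3.01 with all libraries and -0.44 to 1.76 without both libraries numbered 1. A change in the difference between lines was called for 0 of 32 collagen genes by edgeR, beside 0% of 22009 genes, with 1 collagen gene (COL23A1) at an unadjusted p under 0.05, beside 8.66% of all genes.

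In both libraries that stood apart, the collagen ratios moved with transcript GC content. The log2 ratio to the other libraries of the line had a correlation of 0.867 with transcript GC content over 13 genes in HepG2 and 0.756 over 21 genes in SH-SY5Y, and of -0.465 and -0.641 with the log2 transcript length. Some collagen genes with GC-rich transcripts were not high by this ratio. In the HepG2 library COL2A1 (62.3% GC) had a log2 ratio of -0.01 and COL27A1 (61.3%) -0.33. In the SH-SY5Y library COL11A2 (63.3%) had -0.02, COL27A1 -0.90 and COL5A1 (60.3%) -1.52. The SH-SY5Y ratios and their correlation rest on a mean that includes both libraries numbered 1. COL5A1 had 20.3 and 15.9 CPM in those, 2.4 to 2.74 CPM in the remaining libraries and 3.04 CPM in control replicate 2. For COL27A1 these were 1.45 and 1.87, 0.608 to 0.818, and 0.568 CPM. These are descriptions over genes that share 1 library, and the part of GC content or length was not tested.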

How the data were processed

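Polyadenylated RNA of 12 libraries, 3 per group, was analysed. The kit marks the strand of the RNA, per the labels' protocols. The authors deposited counts as whole numbers, not normalized, with 1 row for each Ensembl ID, and cutadapt, HISAT2, StringTie, edgeR and limma with GRCh38 (hg38) were used per the submitters' processing notes. Versions, the strand setting and the way reads became counts: not given in the sources used here. Counts of 4 and 8 are over-represented in every library, so 1 count need not be 1 read. Of the 60612 rows, 60401 had a symbol and 211 did not.

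Libraries of both lines were fitted together for line contrasts and each line alone for EXACT1, with edgeR 4.0.16 in R 4.3.3: filterByExpr, TMM scaling, a two-sided quasi-likelihood F test with robust estimates, and Benjamini-Hochberg adjustment over all genes tested. Standard errors come from the F statistic. The code was tested on simulated data with 200 changed genes. With the spread of all libraries it recovered 0 of 100 genes changed 2-fold in each contrast simulated and, of 100 changed 4-fold, 23 between the lines with control (22009 genes), 0 for EXACT1 in HepG2 (17139) and 12 in SH-SY5Y (19853). With the spread of the libraries other than the 2 that stood apart it recovered 41, 64 and 48 at 2-fold and 68, 74 and 69 at 4-fold. Unchanged genes called were 3, 0 and 0 with the spread of all libraries, and 4, 9 and 15 with the other spread. All runs simulated 3 libraries per group. Between the real lines 53.5% of genes were called with control, far more than 200, so these shares do not give the recovery of the line test. Alternatives were DESeq2 1.42.0, limma voom 3.58.1, other scalings and filters, a replicate block, a test against a log2 difference of 1, and libraries left out. Leaving out both SH-SY5Y libraries numbered 1 was chosen after seeing the data. Positions, lengths and GC content came from GENCODE 29, with the principal transcript of each gene for values per kb, and promoter stretches from RefSeq (GRCh38.p14), where 32 of 44 collagen genes matched.

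All 44 collagen genes are accounted for. Other genes are up to 4 called members of each list with the largest log2 difference, at a mean of at least 1 CPM in either line, plus the most abundant. ADAMTS2 is also given, beside ADAMTS3 and ADAMTS14. DCN, LUM, SPARC, VIM and YAP1 in single libraries, and the hepatocyte markers with close log2 differences, were picked after their values were seen. The members and lists were chosen with earlier results of these data known. Whether replicate libraries came from separate cultures is not stated, and p-values reflect only their spread, which may be technical.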

Additional observations from a re-analysis of the deposited data

How the results depend on the processing

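With the control plasmid the counts of collagen genes higher and lower in HepG2, 10 and 17, kept within 1.5 times of these values under every alternative except 1: the test against a log2 difference of 1 called 9 higher and 11 lower. Leaving out 1 library at a time gave 9 to 11 higher and 12 to 17 lower with control, and 11 to 12 higher and 12 to 13 lower with EXACT1, where 11 and 12 were called. The fit with the replicate block gave 11 and 16, and 11 and 14, and no EXACT1 call in either line (0 collagen genes). Changes of EXACT1 against control were 0 collagen genes under every alternative run, beside at most 10 of 17139 genes in HepG2 and 9 of 19853 in SH-SY5Y, both by DESeq2. Of the 27 calls with control, 20 were kept under every alternative that gave the gene a value, and 7 were lost under at least 1: COL5A2, COL6A1, COL6A3, COL8A2, COL11A2, COL19A1 and COL24A1. The test against a log2 difference of 1 lost all 7. Without HepG2 control replicate 1 or replicate 3 the other 6 were lost, without SH-SY5Y control replicate 1 COL5A2, COL6A3, COL8A2, COL11A2 and COL19A1, and without SH-SY5Y control replicate 3 COL5A2, COL8A2, COL19A1 and COL24A1. Without HepG2 control replicate 2 COL19A1 and COL24A1 were lost, without SH-SY5Y control replicate 2 COL11A2, COL19A1 and COL24A1, without SH-SY5Y EXACT1 replicate 1 or replicate 2 COL8A2 and COL19A1, and without its replicate 3 COL6A3, COL8A2 and COL11A2. COL9A2 was gained without either library that stood apart. With EXACT1, 21 of 23 calls were kept, COL3A1 was lost with limma voom and COL5A2 in the test against a log2 difference of 1, and library totals alone added 6 calls. DESeq2 gave no adjusted p for COL3A1. No called collagen gene changed direction between the lines. Of those not called with control, COL4A4 turned from -1.37 to 1.43 and COL28A1 from -1.82 to 1.14 with limma voom, and with 1 library left out COL4A4 lay between -1.95 and 4.79 (without SH-SY5Y control replicate 3) and COL10A1 between 0.00 (without HepG2 control replicate 1) and 6.02. In HepG2 the EXACT1 change of COL9A2 turned to -0.11 with limma voom and that of COL18A1 to -0.05. With 1 library left out at a time they lay between -0.12 (without EXACT1 replicate 1) and 1.04, and between -0.04 and 0.78. The cause was not tested. Replicate numbers were not used as pairs: over all genes, the deviations of same-numbered libraries had correlations of 0.00594, -0.0174 and 0.029 in HepG2 and 0.239, 0.088 and 0.0347 in SH-SY5Y, and over the tested collagen genes -0.191, -0.265 and 0.328, and 0.629, 0.0553 and 0.382. Of 6 libraries, 1 in HepG2 and 5 in SH-SY5Y correlated best with the library of its own number, a hint from the data and not from the design. Genes under 12 counts per library cannot be told from 0.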
